A study of Mus musculus with 12 samples.

Results

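The C-type lectins encoded in the Dectin gene clusters, together with the related Clec10a, were examined across the macrophages and monocytes of mouse bone marrow. The set held 10 genes, Clec4a1, Clec4a2, Clec4a3, Clec4d, Clec4e, Clec4n, Clec7a, Clec10a, Clec12a and Clec1b, which were matched by symbol among the 56953 genes of the deposited tables. They were chosen as members of a gene family and not by a measured value, though with earlier results of these data known. Related lectins outside the set are given separately. All 10 entered the test in every comparison.

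The study compared macrophages that arise before birth with those of adult origin, and took monocytes as a further reference. All cells came from the bone marrow of 8-week-old female C57BL/6J mice carrying Rank cre/+;R26.eYFP fl/+, in which Cre expressed from the Rank locus switches on a yellow fluorescent reporter in embryonic macrophages and their progeny. The 4 groups were eYFP+ macrophages and eYFP- macrophages, both sorted as F4/80hi CD206+ VCAM1+ CD11b low cells, and Ly6Chi and Ly6Clo monocytes, with 3 libraries each. The eYFP- group is defined by the absence of the reporter. The labels name neither the animal behind a library nor pooling, so p-values measure the spread between these libraries, which may in part be technical.

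The 12 libraries held between 26390927 and 48618187 assigned read pairs. Vcam1 (log2 difference 8.34), Mrc1 (CD206, 5.97) and Adgre1 (F4/80, 1.85) were higher in the 6 macrophage libraries, while Ly6c2 lay at 5809 to 6963 TPM (transcript counts per length, scaled to the same sum in each library) in Ly6Chi and 32.4 to 77.5 TPM in Ly6Clo monocytes. Macrophages, Ly6Chi and Ly6Clo monocytes thus carried these marks of their sort. These genes do not check the reporter that separates eYFP+ from eYFP- macrophages. Ly6Clo replicate 2 and eYFP+ replicate 1 stood apart, with fewer counts in GC-rich genes, and results of the lectins that changed without them are given both ways. Ly6Clo replicate 2 held the highest value of its group for 8 of the 10 lectins and eYFP+ replicate 1 for 9 of 10. In eYFP- replicate 2 the summed level of 12 neutrophil genes reached 2600 TPM. Erythroid genes summed to 8970 to 14500 TPM in eYFP+ and 22200 to 35100 TPM in eYFP- macrophages against at most 1410 TPM in monocytes. Summed B-cell markers, mainly Cd79b, reached 701 TPM in macrophages, eosinophil and mast cell markers summed to 786 to 1180 TPM in eYFP+, mainly Ccr3, and to 879 to 1960 TPM in eYFP- macrophages, where Ccr3 took 612.8 to 623.7 TPM and Prg2 up to 916.7 TPM, and T and NK cell markers stayed at or below 23.5 TPM in every library.

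C-type lectin receptors bind sugars, lipids and other ligands of microbes and damaged cells. Some members carry an inhibitory motif (ITIM) in their cytoplasmic tail, which recruits phosphatases such as SHP-1, the product of Ptpn6. Others carry a single activating half-motif (hemITAM) or pair with the adaptor FcRγ, the product of Fcer1g, and signal through the kinase Syk and the scaffold protein Card9 to inflammatory genes. Most of the genes lie in dense clusters on mouse chromosome 6, and myeloid cells express them in combinations that differ between cell types.

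RefSeq start-site windows, from 250 bases before to 50 bases after the start, were found for 8 of the 10 genes. All of these windows lie on chromosome 6 (build GRCm38.p6), at 122921598 to 123290121 for Clec4a1, Clec4a2, Clec4a3, Clec4d and Clec4e and at 129349994 to 129473035 for Clec12a, Clec1b and Clec7a. The windows of Clec4a1 and Clec4a3 are shown because the levels of these genes ran most alike over the libraries among the Clec4 members, and their longest shared run, 17 bases, is in capitals. That run was the longest between the windows of any pair of the members, the next one being 10 bases long. Clec4a1 lies at chr6:122921598-122921897 and Clec4a3 at chr6:122952394-122952693, both on the plus strand.
Clec4a1: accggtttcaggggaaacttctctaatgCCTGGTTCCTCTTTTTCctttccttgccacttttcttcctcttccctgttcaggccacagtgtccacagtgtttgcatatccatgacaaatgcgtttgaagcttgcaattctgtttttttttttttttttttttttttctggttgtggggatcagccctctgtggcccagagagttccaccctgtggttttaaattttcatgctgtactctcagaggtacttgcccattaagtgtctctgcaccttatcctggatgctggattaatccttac
Clec4a3: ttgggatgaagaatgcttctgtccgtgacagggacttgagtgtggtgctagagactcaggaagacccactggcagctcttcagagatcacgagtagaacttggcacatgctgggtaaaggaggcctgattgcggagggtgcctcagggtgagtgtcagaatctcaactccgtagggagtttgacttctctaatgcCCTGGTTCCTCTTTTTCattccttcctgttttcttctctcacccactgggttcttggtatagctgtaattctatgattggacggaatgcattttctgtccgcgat
The windows of Clec4d, chr6:123261857-123262156 on the plus strand, and Clec4e, chr6:123289822-123290121 on the minus strand, are shown as those of neighbouring genes that were both higher in monocytes. Capitals mark GAGGAA, the core bound by the myeloid factor PU.1, or its reverse complement TTCCTC. The letters occurred 3 times in the Clec4d window and 2 times in the Clec4e window.
Clec4d: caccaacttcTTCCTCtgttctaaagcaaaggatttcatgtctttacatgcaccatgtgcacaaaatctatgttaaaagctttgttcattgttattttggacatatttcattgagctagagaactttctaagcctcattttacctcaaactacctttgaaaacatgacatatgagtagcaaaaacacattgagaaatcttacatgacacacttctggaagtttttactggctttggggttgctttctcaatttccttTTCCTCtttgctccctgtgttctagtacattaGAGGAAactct
Clec4e: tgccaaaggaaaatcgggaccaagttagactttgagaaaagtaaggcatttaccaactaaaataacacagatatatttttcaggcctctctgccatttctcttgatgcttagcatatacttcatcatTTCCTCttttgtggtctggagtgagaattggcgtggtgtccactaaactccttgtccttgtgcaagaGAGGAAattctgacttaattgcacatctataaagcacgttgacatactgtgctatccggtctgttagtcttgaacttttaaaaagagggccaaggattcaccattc
Across all 32851 windows of the reference table, 28.3% held GAGGAA on one of the strands, and 6 of the 8 lectin genes did in at least one of their windows. A match describes letters in a window and is not evidence of binding.

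Together, the 10 lectins took up 0.387, 0.274 and 0.246% of all TPM in the eYFP+ libraries, 0.266, 0.247 and 0.235% in eYFP-, 0.272, 0.264 and 0.306% in Ly6Chi and 0.391, 0.551 and 0.405% in Ly6Clo. The Ly6Clo libraries were the 3 highest and the other groups overlapped. The highest eYFP+ and Ly6Clo shares came from the 2 GC-poor libraries. Among them, Clec4a3 had the highest mean in macrophages and monocytes alike, with 806.3 TPM in eYFP+, 661.2 TPM in eYFP-, 869.9 TPM in Ly6Chi and 2167 TPM in Ly6Clo cells. Clec4e was the lowest in macrophages, with 0.332 TPM in eYFP+ and 1.89 TPM in eYFP- cells. In bulk samples of sorted cells, fewer cells expressing a gene and less RNA of that gene per cell cannot be told apart.

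**Figure D1:**
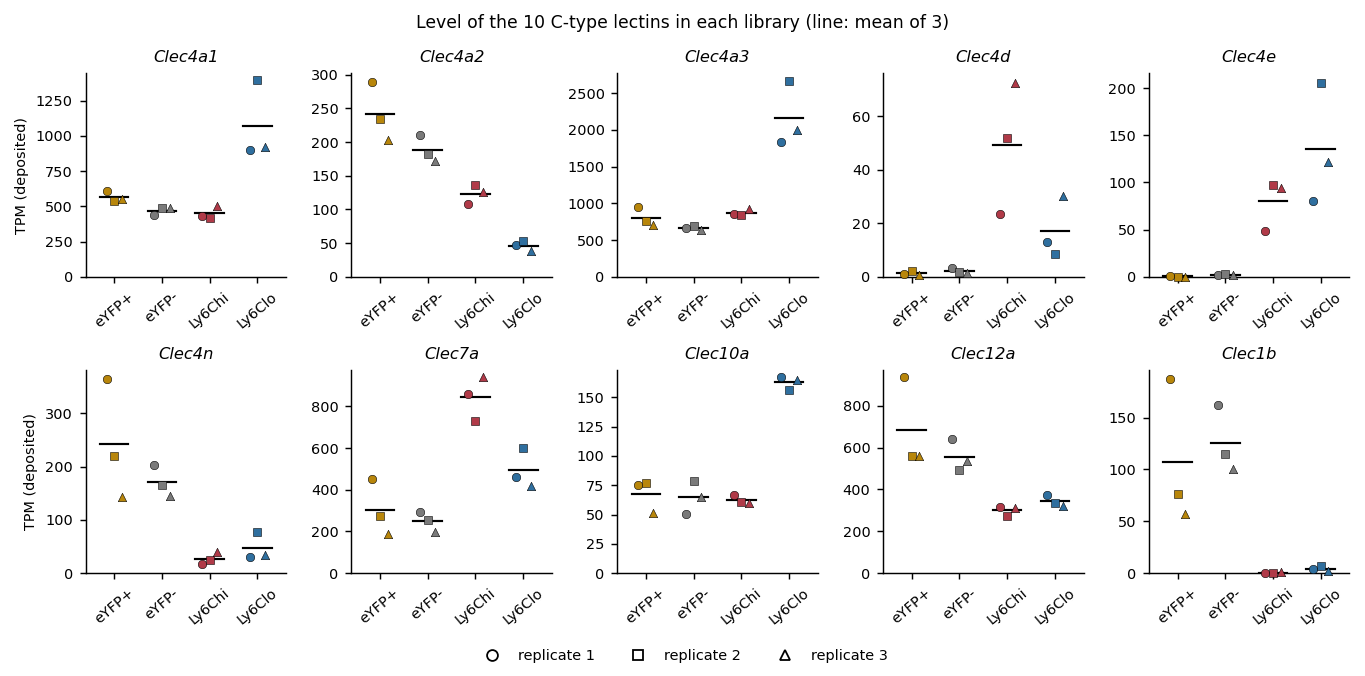
Deposited TPM of each of the 10 lectins in the 12 libraries (y axis, linear, a separate scale for each gene), by group on the x axis, with the replicate number as symbol and the mean of 3 as a line. Clec4d and Clec4e are near 0 in the 6 macrophage libraries, Clec1b in the 3 Ly6Chi libraries, and Clec4a1, Clec4a3 and Clec10a have their highest values in Ly6Clo monocytes.

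Between eYFP+ and eYFP- macrophages, none of the 10 lectins passed DESeq2's test at an adjusted p of 0.05 over all tested genes, where 2.07% of genes passed. With edgeR's quasi-likelihood test the count was also 0 of 10, against 0.334% of genes, and limma called none with either pseudocount. None of these tests paired the libraries by replicate number. Of the 10, Clec4e had the lowest unadjusted p in DESeq2, 0.00398, with a DESeq2 adjusted p of 0.13. Groups that did not overlap were found for 2 of 10 lectins, Clec4a1 and Clec4e, as they were for 15.3% of all tested genes. The median log2 difference of the 10 was 0.33, beside 0.05 over all tested genes, but -0.04 without eYFP+ replicate 1 and -0.05 without both GC-poor libraries.

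Between Ly6Chi and Ly6Clo monocytes, 5 of 10 lectins changed in DESeq2, beside 8.82% of all tested genes. Clec4a2 was the single one higher in Ly6Chi (background in that direction 3.74%), while Clec4a1, Clec4a3, Clec10a and Clec1b were lower (background 5.08%). The edgeR test called 4 of 10, beside 4.32% of genes, and left out Clec1b. The groups did not overlap for 7 of 10 lectins and for 28.3% of all tested genes. The median log2 difference of the 10 was -0.82, beside 0.01 over all tested genes, and -0.28 without Ly6Clo replicate 2 or without both GC-poor libraries.

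When the 6 macrophage libraries were compared with the 6 monocyte libraries, all 10 lectins changed in DESeq2, beside 36% of all tested genes. Clec4a2, Clec4n, Clec12a and Clec1b were higher in macrophages (background in that direction 20.7%) and Clec4a1, Clec4a3, Clec4d, Clec4e, Clec7a and Clec10a were lower (background 15.3%). The edgeR test also called 10 of 10, beside 35.6% of genes, and DESeq2 without the 2 GC-poor libraries 10 of 10. The count was 9 when any single one of 7 libraries was left out or with the replicate number as a block, where Clec4a1 was lost, and 9 with a GC and length correction and that block, where Clec12a was lost. For 6 of 10 lectins the 6 macrophage values did not overlap the 6 monocyte values, which was so for 18.0% of all tested genes. This contrast averages 2 groups on each side, and Clec4a1, Clec4a3, Clec7a and Clec10a overlapped. The median log2 difference was -0.62, beside 0.08 over all tested genes.

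Taken pair by pair, 7 of 10 lectins differed between eYFP+ macrophages and Ly6Chi monocytes (28.7% of all tested genes), and 9 of 10 between eYFP+ macrophages and Ly6Clo monocytes (26.1%). For eYFP- macrophages, 5 of 10 differed from Ly6Chi (25.5%) and 9 of 10 from Ly6Clo monocytes (26.8%). These 4 comparisons share their groups and are not independent of each other. Over the alternatives and single libraries left out, the 4 counts ranged from 5 to 8, from 7 to 9, from 5 to 7 and from 8 to 10 in the same order. The one lectin not called against Ly6Clo monocytes was Clec7a for eYFP+ cells and Clec12a for eYFP- cells.

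**Figure D2:**
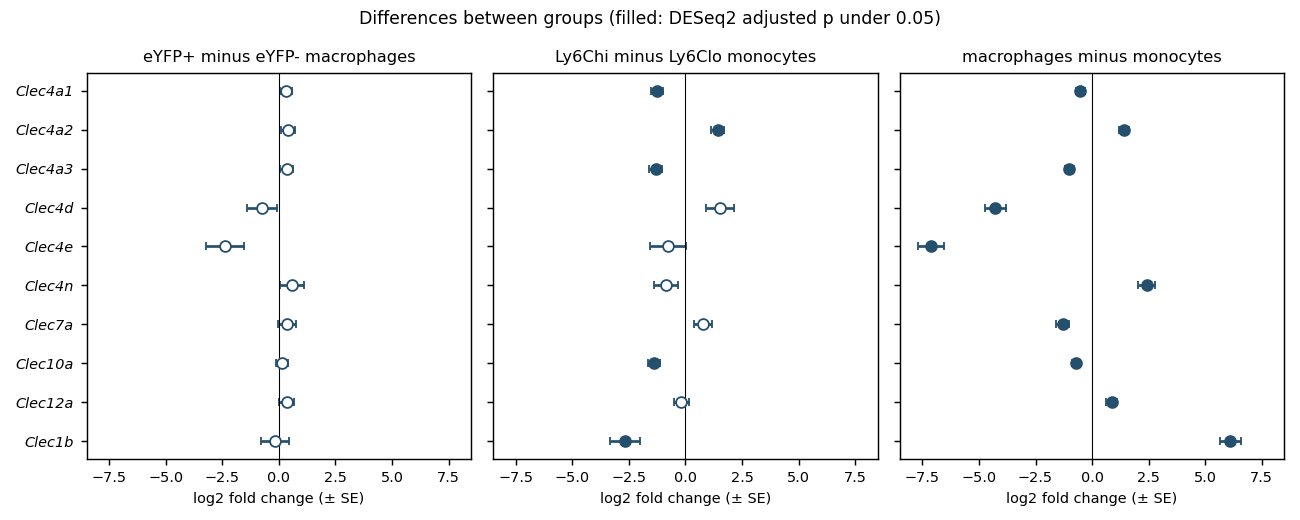
Log2 fold changes from DESeq2 (x axis, points with standard errors) of the 10 lectins (y axis) in the 3 main comparisons, filled where the adjusted p was under 0.05. The eYFP+ against eYFP- panel has no filled point, the Ly6Chi against Ly6Clo panel has 5 and the macrophage against monocyte panel has 10, from -7.12 for Clec4e to 6.11 for Clec1b.

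The Clec4a genes encode the DCIR family, in which Clec4a2 (DCIR) is an inhibitory receptor with an ITIM. In normalized counts, Clec4a2 measured 15550, 11020 and 9168 in the eYFP+ libraries, 10930, 7805 and 8177 in eYFP-, 5595, 6969 and 6483 in Ly6Chi and 2296, 2858 and 1984 in Ly6Clo. Every macrophage library lay above every monocyte library, and every Ly6Chi above every Ly6Clo library. The fold was 2.66 between macrophages and monocytes (log2 difference 1.41 ± 0.21 SE, DESeq2 adjusted p = 2e-10). Between Ly6Chi and Ly6Clo it was 2.67 (1.42 ± 0.30, DESeq2 adjusted p = 8.57e-05; edgeR adjusted p = 0.00639). The step from eYFP- macrophages to Ly6Chi monocytes did not pass the test (0.50, DESeq2 adjusted p = 0.227).

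Clec4a1, a further DCIR family gene, measured 20490, 15970 and 15640 normalized counts in eYFP+, 14230, 13170 and 14500 in eYFP-, 13840, 13450 and 16300 in Ly6Chi and 27280, 47470 and 29860 in Ly6Clo libraries. The Ly6Clo libraries were the 3 highest. Clec4a3 measured 26880, 18770 and 16600 in eYFP+, 17900, 15400 and 16000 in eYFP-, 22940, 22610 and 24790 in Ly6Chi and 46320, 75760 and 54200 in Ly6Clo libraries. It too had its 3 highest values in Ly6Clo, and Ly6Clo replicate 2 was the highest of all for both genes. Ly6Clo exceeded Ly6Chi 2.4-fold for Clec4a1 (log2 difference -1.26 ± 0.28, Ly6Chi minus Ly6Clo, DESeq2 adjusted p = 0.000258) and 2.51-fold for Clec4a3 (-1.33 ± 0.28, DESeq2 adjusted p = 0.000151). Without Ly6Clo replicate 2 and eYFP+ replicate 1 these were -0.98 and -1.10, with DESeq2 adjusted p of 1.56e-07 and 5.44e-09. Among the remaining 3 groups, no neighbours in the order of levels passed the test for either gene. Against monocytes as a whole, Clec4a3 was 2.01-fold lower in macrophages (DESeq2 adjusted p = 4.56e-06), with overlapping libraries. Clec4a1 was 1.45-fold lower (-0.53 ± 0.20, DESeq2 adjusted p = 0.0231), a call that was lost when any single one of 7 libraries was left out (DESeq2 adjusted p from 0.0511 without Ly6Chi replicate 1 to 0.0934 without eYFP- replicate 1).

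Per length, the makeup of the DCIR genes varied between groups. Clec4a2 made up 13.9 to 15.6% of the summed Clec4a1, Clec4a2 and Clec4a3 TPM in eYFP+ and 13.2 to 16.1% in eYFP- macrophages, 7.83 to 9.74% in Ly6Chi and 1.28 to 1.71% in Ly6Clo monocytes. The macrophage groups overlapped in this share, and the others did not. The ratio of Clec4a3 to Clec4a2 TPM had means of 3.34, 3.54, 7.11 and 47.1 in the same order. For Clec4a2, 8.92% of the 50-base windows of its transcripts also occurred in another gene, mostly Clec4a4, while Clec4a1 and Clec4a3 shared none, so reads of Clec4a2 could have been dropped where they did not map to 1 gene.

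**Figure D3:**
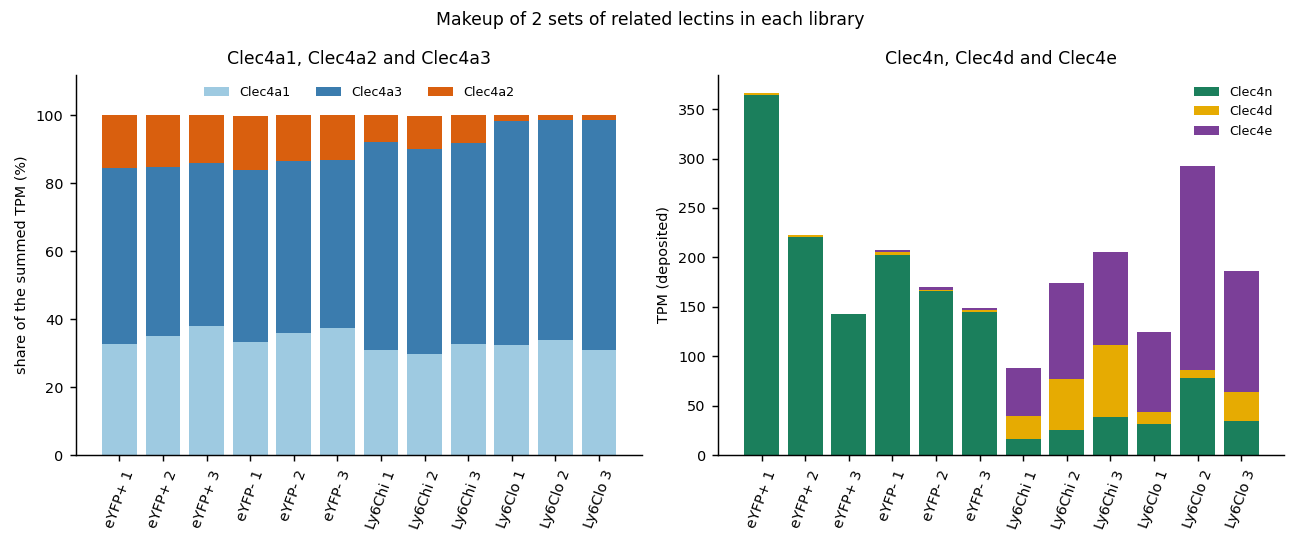
Left, the share (%) of Clec4a1, Clec4a3 and Clec4a2 in their summed TPM in each library, and right, the stacked TPM of Clec4n, Clec4d and Clec4e in each library. The Clec4a2 share is at most 1.71% in the 3 Ly6Clo libraries and at least 13.2% in the 6 macrophage libraries, and Clec4n makes up at least 97.5% of the right-hand sum in macrophages.

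Clec12a, an ITIM receptor that binds uric acid crystals, was among the highest lectins in macrophages, at 685.5 TPM in eYFP+ and 557 TPM in eYFP- cells. It measured 50860, 26580 and 25350 normalized counts in eYFP+, 33560, 21330 and 25810 in eYFP-, 16530, 14260 and 16090 in Ly6Chi and 18200, 18380 and 16750 in Ly6Clo libraries. All macrophage libraries lay above all monocyte libraries, and eYFP+ replicate 1 was far above the other eYFP+ libraries. Macrophages exceeded monocytes 1.82-fold (log2 difference 0.86 ± 0.23, DESeq2 adjusted p = 0.000999). The difference was 0.63 without the 2 GC-poor libraries (DESeq2 adjusted p = 0.000233), and 0.53 after a GC and length correction with the replicate number as a block, where it was not called (DESeq2 adjusted p = 0.0937). The difference between Ly6Chi and Ly6Clo monocytes did not pass (-0.19 ± 0.33, DESeq2 adjusted p = 0.814), though their libraries did not overlap.

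Clec4n, Clec4d and Clec4e encode Dectin-2, MCL and Mincle, activating receptors that rely on FcRγ, of which Dectin-2 binds fungal mannans and Mincle mycobacterial glycolipids and a protein of dying cells. Clec4n was higher in macrophages, and the other pair in monocytes. Clec4n measured 9699, 5142 and 3188 normalized counts in eYFP+, 5206, 3522 and 3429 in eYFP-, 416.8, 637.6 and 997.4 in Ly6Chi and 746.9, 2091 and 875.6 in Ly6Clo libraries. The lowest macrophage library lay above the highest monocyte library, Ly6Clo replicate 2. The fold over monocytes was 5.36 (log2 difference 2.42 ± 0.38, DESeq2 adjusted p = 1.22e-09), and the log2 difference was 2.42 without both GC-poor libraries as well (DESeq2 adjusted p = 2.14e-19). In Ly6Clo monocytes the mean was above that of Ly6Chi, but the libraries overlapped and the difference did not pass (-0.86 ± 0.53, DESeq2 adjusted p = 0.367), and it was -0.25 without Ly6Clo replicate 2 (DESeq2 adjusted p = 0.892).

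Clec4e showed the opposite order. It measured 40.14, 12.4 and 0 normalized counts in eYFP+ and 81.24, 107.1 and 81.17 in eYFP- libraries, against 2519, 5084 and 4911 in Ly6Chi and 3947, 11300 and 6383 in Ly6Clo. The 6 monocyte libraries lay far above all macrophage libraries, and eYFP+ replicate 3 had no read pair. Monocytes exceeded macrophages 139-fold (log2 difference -7.12 ± 0.57, macrophages minus monocytes, DESeq2 adjusted p = 1.55e-33). The step between the closest groups, Ly6Chi and eYFP-, was 46.4-fold (DESeq2 adjusted p = 1.41e-10). Ly6Chi and Ly6Clo overlapped, and their difference did not pass (-0.79 ± 0.80, DESeq2 adjusted p = 0.636).

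Within macrophages, Clec4e was 5.19-fold lower in eYFP+ than in eYFP- cells and the 3 libraries of each group did not overlap, but at these low counts the difference missed the threshold (log2 difference -2.38 ± 0.83, DESeq2 adjusted p = 0.13; edgeR adjusted p = 0.434). The raw read pairs behind it were 39, 13 and 0 in eYFP+ and 89, 144 and 97 in eYFP- libraries. It passed without eYFP+ replicate 1 (-3.92, DESeq2 adjusted p = 0.000145) and without both GC-poor libraries (-3.92, DESeq2 adjusted p = 0.000316), while without eYFP+ replicate 3 it was -1.78 (DESeq2 adjusted p = 0.145). The summed neutrophil markers lay at 163 to 240 TPM in eYFP+ and 236 to 2600 TPM in eYFP- macrophages, ranges that overlap. Of the 12, Mpo, Camp and Ngp were lower in eYFP+ in DESeq2 (2.07% of all tested genes were called), and none was in edgeR. Mmp8, Retnlg, Cxcr2 and Csf3r had differences above 0 that did not pass. Without both GC-poor libraries, Camp was not called (DESeq2 adjusted p = 0.0582) while Elane was (DESeq2 adjusted p = 0.00226). In that setting Mmp8 (-1.72), Retnlg (-1.34) and Cxcr2 (-6.37) lay below 0 and Csf3r above (0.22), none of them called. The highest sum came from eYFP- replicate 2, which also had the highest eYFP- value of Clec4e. The monocyte gene Ccr2 lay at 1.1 to 2.07 TPM in eYFP+ and 2.76 to 8.9 TPM in eYFP- macrophages (log2 difference -1.80 ± 0.43, DESeq2 adjusted p = 0.00265; edgeR adjusted p = 0.0809), and Ly6c2 at 0.232 to 2.43 and 1.7 to 23 TPM. In DESeq2, 3 of 8 dendritic genes, Flt3, Xcr1 and Cd209a, were also lower in eYFP+ macrophages. So was 1 of 7 tested eosinophil and mast cell genes, the basophil gene Mcpt8, beside 2.07% of all tested genes called. No gene of these lists was called higher, and edgeR called none in either direction. Ccr7 (1.29), Siglech (1.73) and Ccr3 (0.62) had differences above 0 that did not pass. The part of neutrophil, monocyte, dendritic or basophil RNA in the Clec4e difference was not tested.

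Clec4d measured 32.94, 50.54 and 12.58 normalized counts in eYFP+, 85.81, 39.42 and 35.98 in eYFP-, 646.9, 1419 and 1990 in Ly6Chi and 331, 247.9 and 829.9 in Ly6Clo libraries. Monocyte and macrophage libraries did not overlap, while each pair of groups within a cell type did. The fold between monocytes and macrophages was 19.3 (log2 difference -4.27 ± 0.45, macrophages minus monocytes, DESeq2 adjusted p = 7.5e-20), and that between the closest groups, Ly6Clo and eYFP-, was 8.75 (DESeq2 adjusted p = 1.05e-05). Ly6Chi exceeded Ly6Clo 2.88-fold without passing (1.52 ± 0.63, DESeq2 adjusted p = 0.114), and passed when Ly6Clo replicate 3 was left out (2.22, DESeq2 adjusted p = 0.0102).

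The 12 neutrophil markers summed to 16000 to 24000 TPM in Ly6Chi and 6850 to 16200 TPM in Ly6Clo monocytes, above all macrophages. The main contributors were S100a8 and S100a9, which monocytes also express, and the granule genes Ngp and Camp, at 2081 to 3087 and 1910 to 3041 TPM in Ly6Chi and 1401 to 2511 and 865.2 to 1430 TPM in Ly6Clo. Ly6g, which defines neutrophils, lay at 2.31 to 4.17 TPM in Ly6Chi and 19.8 to 43.2 TPM in Ly6Clo monocytes and at or below 1.65 TPM in macrophages. Elane, Mpo and Mmp8 ran the other way, at 469.3 to 787.8, 266.4 to 427 and 144 to 185.8 TPM in Ly6Chi and at most 3.92, 8.97 and 52.6 TPM in Ly6Clo monocytes. Between the monocytes, 2 of the 12 were called higher in Ly6Chi (background 3.74%) and 1 lower (background 5.08%) in DESeq2, and 9 did not pass. Of the lectins, Clec4d had its higher mean in Ly6Chi and Clec4e in Ly6Clo, and neither difference passed (DESeq2 adjusted p = 0.114 and 0.636). Of the 12 markers, 9 were lower in macrophages (background 15.3%), and the part of neutrophil RNA in the levels of Clec4d and Clec4e was not tested.

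Per length, Clec4n made up 99 to 99.6% of the summed TPM of the FcRγ-coupled trio in eYFP+ and 97.5 to 97.9% in eYFP- macrophages, but 14.4 to 19% in Ly6Chi and 18.4 to 26.7% in Ly6Clo monocytes. The sum itself overlapped between groups. It was 367, 223 and 143 TPM in eYFP+, 207, 170 and 148 TPM in eYFP-, 88.1, 175 and 205 TPM in Ly6Chi and 125, 292 and 186 TPM in Ly6Clo libraries. Between the monocytes, the ratio of Clec4e to Clec4d TPM was 2.05, 1.88 and 1.3 in Ly6Chi and 6.26, 24 and 4.04 in Ly6Clo libraries, with no overlap.

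Clec7a encodes Dectin-1, the hemITAM receptor for fungal β-glucans. It measured 6879, 3705 and 2431 normalized counts in eYFP+, 4350, 3119 and 2707 in eYFP-, 12610, 10710 and 13780 in Ly6Chi and 6357, 9239 and 6148 in Ly6Clo libraries. The Ly6Chi libraries were the 3 highest, and eYFP+ replicate 1 reached into the Ly6Clo range. Macrophages were 2.47-fold below monocytes (log2 difference -1.30 ± 0.28, DESeq2 adjusted p = 3.17e-05), and the difference was -1.49 without both GC-poor libraries (DESeq2 adjusted p = 9.79e-14). No neighbouring pair in the order Ly6Chi, Ly6Clo, eYFP+, eYFP- passed the test. The 1.71-fold step from Ly6Chi to Ly6Clo (0.77 ± 0.40, DESeq2 adjusted p = 0.256) passed without both GC-poor libraries (0.98, DESeq2 adjusted p = 0.00411). Set against Clec4n per length, Clec7a TPM was 1.27 and 1.45 times as high in eYFP+ and eYFP- macrophages and 35.3 and 11.6 times as high in Ly6Chi and Ly6Clo monocytes, as means of 3.

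Clec1b encodes CLEC-2, a hemITAM receptor for podoplanin that is best known from platelets. It measured 4409, 1575 and 1138 normalized counts in eYFP+, 3705, 2165 and 2098 in eYFP-, 9.55, 8.5 and 25.51 in Ly6Chi and 78.94, 154.1 and 42.66 in Ly6Clo libraries. Macrophages and monocytes were separated by a wide gap, and every Ly6Clo library lay above every Ly6Chi library. The fold between macrophages and monocytes was 69 (log2 difference 6.11 ± 0.45, DESeq2 adjusted p = 1.17e-39). Ly6Clo exceeded Ly6Chi 6.33-fold (-2.66 ± 0.66, Ly6Chi minus Ly6Clo, DESeq2 adjusted p = 0.00177), but edgeR (adjusted p = 0.0513) and limma on log2(TPM + 1) (-1.54, adjusted p = 0.0810) did not call it. It was -2.08 without Ly6Clo replicate 2 (DESeq2 adjusted p = 0.0164) and -3.34 without Ly6Chi replicate 3. The eYFP+ and eYFP- libraries overlapped (-0.16 ± 0.61, DESeq2 adjusted p = 1), and without eYFP+ replicate 1 the difference was -0.97 (DESeq2 adjusted p = 0.843). For Clec1b, 3.86% of the 50-base transcript windows were shared, mostly with Clec9a.

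In their summed level, the 11 megakaryocyte and platelet markers ran in parallel with Clec1b between the cell types and between the monocytes. They summed to 124 to 203 TPM in eYFP+ and 148 to 203 TPM in eYFP- macrophages, 2.6 to 4.72 TPM in Ly6Chi and 60.5 to 77.4 TPM in Ly6Clo monocytes, and 6 of the 9 that entered the test were higher in macrophages (background 20.7%). Pf4, which macrophages can also express, made up most of this, at 110.4 to 198.4 TPM in macrophages and 55.8 to 74.8 TPM in Ly6Clo monocytes. Single markers did not all follow, and Gp5 was higher in Ly6Chi than in Ly6Clo monocytes (5.58 ± 1.42, DESeq2 adjusted p = 0.0023; edgeR adjusted p = 0.0605). The platelet receptor genes Gp6 and Gp1bb were at 0.0418 TPM or less in every library, and Gp1ba at 0.492 TPM or less. Itga2b, a platelet integrin, lay at 0.457 to 0.961 TPM in eYFP+ and 11.2 to 21.1 TPM in eYFP- macrophages, and the Clec1b values of the same groups overlapped. The part of platelet RNA in the Clec1b levels was not tested.

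Clec10a encodes a galactose-type lectin that takes up glycoproteins. It measured 2430, 2182 and 1390 normalized counts in eYFP+, 1579, 2030 and 1867 in eYFP-, 2065, 1872 and 1855 in Ly6Chi and 4887, 5103 and 5122 in Ly6Clo libraries. The Ly6Clo libraries stood above all others, which overlapped with each other. Ly6Clo exceeded Ly6Chi 2.61-fold (log2 difference -1.38 ± 0.27, Ly6Chi minus Ly6Clo, DESeq2 adjusted p = 1.06e-05; edgeR adjusted p = 0.00756), and the difference between macrophages and monocytes, 1.63-fold (-0.71 ± 0.19, DESeq2 adjusted p = 0.000773), came with overlapping libraries. Neither macrophage group passed the test against Ly6Chi monocytes. For Clec10a, 10.6% of the transcript windows were shared, mostly with its close copy Mgl2, so its counts are uncertain to that extent.

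The 8 dendritic cell markers were also highest in Ly6Clo monocytes, at 672 to 2920 TPM in sum, against 151 to 176 TPM in Ly6Chi, 63.2 to 77.6 TPM in eYFP- and 23 to 47.7 TPM in eYFP+ cells. Most of it was Cd209a, at 562.4, 2820 and 549.5 TPM in the 3 Ly6Clo libraries. Of the others, Kmo lay at 30.5 to 47.3 TPM in Ly6Clo against 14.3 to 18.5 TPM in Ly6Chi, Ccr7 at 9.13 to 51.2 TPM against 0, and Flt3 at 7.08 to 42.7 TPM against 18.8 to 30.4 TPM, while Batf3 overlapped between the monocytes and Xcr1, Zbtb46 and Siglech were at or below 1.5, 9.2 and 2.61 TPM in Ly6Clo. In DESeq2, 4 of the 8, Cd209a, Ccr7, Xcr1 and Zbtb46, were lower in Ly6Chi than in Ly6Clo (background 5.08%) and none was higher. The edgeR test called 2 of these 4. Clec4a1 and Clec4a3 peaked in Ly6Clo replicate 2, the highest of its group for 8 of the 10 lectins, while Clec10a was nearly equal in the 3 Ly6Clo libraries. The markers did not move together in that library. Without both GC-poor libraries, Ly6Chi minus Ly6Clo shrank for Cd209a (-3.91 to -2.59) and Kmo (-1.14 to -0.88). It grew for Flt3 (-0.37 to -0.83), Zbtb46 (-3.01 to -3.46), Xcr1 (-5.21 to -5.82) and Siglech (-3.68 to -4.27). The part of dendritic cell RNA in the Clec10a, Clec4a1 and Clec4a3 levels was not tested.

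Over the 12 libraries, the deposited variance-stabilised values of Clec4a1 and Clec4a3 correlated with Pearson r = 0.948, and those of Clec10a with Clec4a3 at r = 0.929. Clec4a2 ran against these genes, with r = -0.809 to Clec4a3 and r = -0.834 to Clec10a. Clec4d and Clec4e had r = 0.888, Clec4n and Clec1b r = 0.957, Clec4n and Clec12a r = 0.897, and Clec4d and Clec1b r = -0.919. The points share libraries and fall into 4 groups of 3, so these values largely restate the differences between groups.

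By the same measure over 12 libraries, the genes most like each lectin were sought among 11056 genes. Clec4e was closest to Rnase6 (r = 0.992), Arhgdib (0.991) and Tnfrsf13b (0.99), Clec1b to Cd209f (0.991), Klrc1 (0.99) and Fam213a (0.989), and Clec4n to Cd14 (0.987), Akr1e1 (0.981) and Saraf (0.981). Clec4a2 was closest to Pira2 (0.984), Ctsc (0.979) and Lgals1 (0.974). Clec4a3 was closest to Gfpt1 (0.982), Ppdpf (0.978) and Pot1b (0.973), Clec4a1 to Tmed5 (0.983) and Cyp4f13 (0.963), beside a gene known only by a clone name, and Clec10a to Cst3 (0.967), Gfpt1 (0.962) and Cd9 (0.944). Clec7a was closest to Ctps2 (0.979), Serp1 (0.976) and Evi2 (0.961), Clec4d to Gyg (0.973), Rps9 (0.97) and Usb1 (0.967), and Clec12a to Prelid2 (0.96), Hadhb (0.953) and Lcp2 (0.949). Clec4a3 and Clec10a thus shared Gfpt1 among their closest genes.

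The signalling partners differed in how they were distributed over the 4 groups. Fcer1g, the adaptor of Clec4n, Clec4d and Clec4e, lay at 7635, 5724 and 5738 TPM in eYFP+, 6401, 4879 and 5330 TPM in eYFP-, 4240, 4323 and 4291 TPM in Ly6Chi and 6630, 7489 and 6944 TPM in Ly6Clo libraries. The difference between macrophages and monocytes did not pass (log2 difference 0.03 ± 0.20, DESeq2 adjusted p = 0.934), and Ly6Chi lay below Ly6Clo without passing (-0.71 ± 0.28, DESeq2 adjusted p = 0.0993), but passed without both GC-poor libraries (-0.62, DESeq2 adjusted p = 0.0368). Syk, the kinase recruited by hemITAM and FcRγ, ranged from 30.9 to 111.1 TPM over the 12 libraries, and macrophages minus monocytes did not pass (0.09 ± 0.27, DESeq2 adjusted p = 0.840).

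Card9, the scaffold downstream of Syk, was lower in macrophages. It lay at 1.47, 5.88 and 4.52 TPM in eYFP+, 1.95, 6.05 and 8.35 TPM in eYFP-, 63.3, 60.3 and 67.3 TPM in Ly6Chi and 46, 0.693 and 43.1 TPM in Ly6Clo libraries. Apart from Ly6Clo replicate 2, a GC-poor library, the monocytes stood above all macrophages (-3.35 ± 0.64, macrophages minus monocytes, DESeq2 adjusted p = 1.16e-06). Without both GC-poor libraries the difference was -3.50 (DESeq2 adjusted p = 6.44e-31). Ptpn6, the phosphatase of ITIM receptors, was 474.8, 422.2 and 429.4 TPM in eYFP+, 393.5, 411.3 and 393.4 TPM in eYFP-, 700.6, 621.9 and 618.2 TPM in Ly6Chi and 746, 357.3 and 590.3 TPM in Ly6Clo libraries. It was lower in macrophages (-0.61 ± 0.20, DESeq2 adjusted p = 0.00822), also without both GC-poor libraries (-0.83, DESeq2 adjusted p = 3.19e-11), while Clec4a2 and Clec12a were higher there, and Ly6Clo replicate 2 was again the lowest monocyte library.

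**Figure D4:**
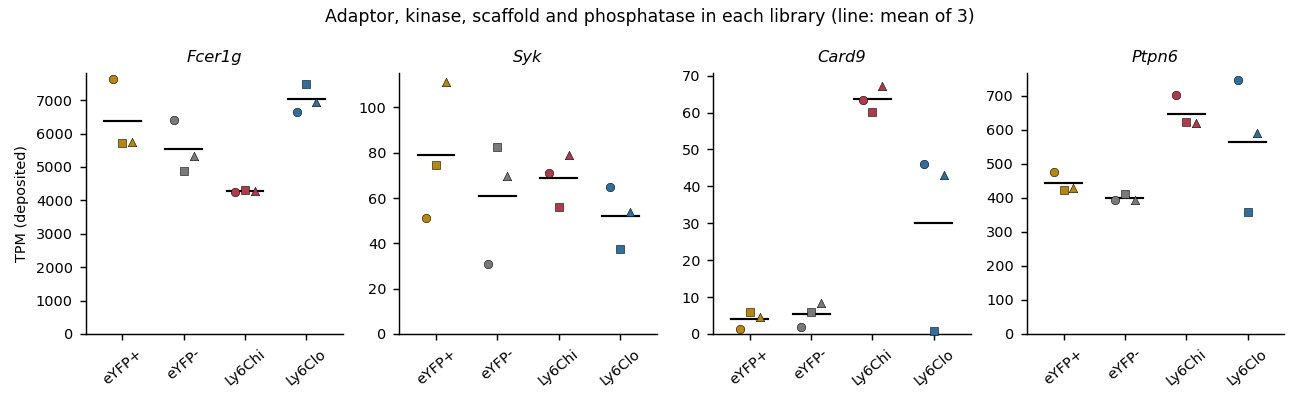
Deposited TPM (y axis, linear, a separate scale for each gene) of the adaptor Fcer1g, the kinase Syk, the scaffold Card9 and the phosphatase Ptpn6 in each library by group, with the replicate number as symbol and the mean of 3 as a line. Card9 is at 8.35 TPM or less in macrophages and at 43.1 TPM or more in monocytes, except Ly6Clo replicate 2 at 0.693 TPM.

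Of 24 genes of the adaptor, Syk and Card9 pathway, none passed DESeq2's test between eYFP+ and eYFP- macrophages, where 2.07% of all tested genes did, and edgeR called none either. Between Ly6Chi and Ly6Clo monocytes 2 were lower in Ly6Chi, the kinase gene Src (log2 difference -5.61 ± 0.73, DESeq2 adjusted p = 4.31e-12) and Nfkb1 (-1.03 ± 0.27, DESeq2 adjusted p = 0.00407), and 22 did not pass, beside 5.08% of all tested genes in that direction. In macrophages against monocytes 3 were higher (background 20.7%) and 11 lower (background 15.3%), edgeR calling 3 and 10, with a median of -0.44 beside 0.08 over all tested genes. Those higher were Src (3.64 ± 0.43), Lcp2 (0.66 ± 0.20), an adaptor downstream of Syk, and Egr2 (2.1 ± 0.67, or 1.48 without both GC-poor libraries), a transcription factor. Src was low throughout, at 2.24 to 4.61 TPM in eYFP+ and 1.6 to 2.3 TPM in eYFP- macrophages. It lay at 0.937 to 1.74 TPM in Ly6Clo, which overlaps eYFP-, and at 0.0599 TPM or less in Ly6Chi monocytes. Those lower included Malt1 (-2.35 ± 0.36), a partner of Card9 and Bcl10, Plcg2 (-2.15 ± 0.36), a phospholipase, and Prkcd (-2.18 ± 0.39), the kinase that acts on Card9. Without both GC-poor libraries, Rela and Map3k7 were also called lower and Egr3 higher. Of the 3 ITIM phosphatase genes, Ptpn6 and Ptpn11 (-1.14 ± 0.25, DESeq2 adjusted p = 4.77e-05) were lower in macrophages, and none passed within macrophages or within monocytes. Shares called over all tested genes were those given for the pathway list.

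Of 15 further C-type lectin and NK receptor genes, most of them neighbours or copies of the 10, 13 entered the test. In eYFP+ against eYFP- macrophages, where 2.07% of all tested genes were called, 1 was higher, Mgl2, a copy of Clec10a (log2 difference 2.14 ± 0.60, DESeq2 adjusted p = 0.0203; edgeR adjusted p = 0.220), and 1 lower, Klrd1, an NK receptor chain (-2.60 ± 0.58, DESeq2 adjusted p = 0.00120; edgeR adjusted p = 0.105). Mgl2 measured 97.8, 443.4 and 102.1 normalized counts in eYFP+ against 27.4, 66.2 and 51.9 in eYFP- libraries, so the groups did not overlap. In Ly6Chi against Ly6Clo monocytes 1 was higher (background 3.74%) and 5 lower (background 5.08%), among them Klrd1 (-4.89 ± 0.57), Clec4b1 (-3.06 ± 0.49, or -2.47 without both GC-poor libraries) and Mgl2 (-3.43 ± 0.58). With edgeR, none was higher and 4 were lower, and without both GC-poor libraries the higher one, Clec4b2, was not called either (DESeq2 adjusted p = 0.0932). Mgl2 and its copy Clec10a both had their highest levels in Ly6Clo cells. Against monocytes, 3 were higher in macrophages (background 20.7%), Clec4b1, an activating DCIR-like receptor (2.58 ± 0.35), Clec2d (1.44 ± 0.41) and Klrk1 (0.78 ± 0.30). A further 7 were lower (background 15.3%), among them Olr1 (-6.47 ± 0.69), a receptor for oxidised lipoproteins, Mgl2 (-3.50 ± 0.42) and Clec5a (-5.29 ± 0.66), which signals through DAP12.

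Among ligands, Pdpn, which encodes the CLEC-2 ligand podoplanin, was at 0.138 TPM or less in every library, and Sap130, the product of which is bound by Mincle, at 6.92 to 12.6 TPM with no call in the main comparisons. Of 11 inflammatory target genes, 8 entered the test, and none passed between eYFP+ and eYFP- macrophages. Ly6Chi monocytes had lower Il1b (log2 difference -2.46 ± 0.41, DESeq2 adjusted p = 2.47e-07), Ccl4 (-3.04 ± 0.51, DESeq2 adjusted p = 3.01e-07, and -2.16 without both GC-poor libraries) and Il10 than Ly6Clo (3 of 8, or 2 with edgeR, background 5.08%), and none was higher. Without both GC-poor libraries, Tnf (-1.13, DESeq2 adjusted p = 0.0120) and Ptgs2 (-3.001, DESeq2 adjusted p = 0.0341) were lower in Ly6Chi as well. In macrophages against monocytes, Il10 (6.05 ± 0.78) and Ccl4 (1.13 ± 0.36) were higher (background 20.7%), while Il1b (-2.05 ± 0.29), Tnf (-1.28 ± 0.28) and Ccl3 (-1.67 ± 0.44) were lower (background 15.3%). The cells were not stimulated, so these are levels at sorting.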

How the data were processed

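Polyadenylated RNA of small sorted samples was turned into amplified cDNA and sequenced. The authors aligned the reads to GRCm39 and deposited raw counts, obtained with featureCounts from read pairs that fell on 1 gene. Whether strand was used is not given in the sources used here. The authors also deposited TPM, which are counts per length scaled to the same sum in each library, and a table that DESeq2's variance stabilisation brought near the log2 scale. Amplified reads carry no molecular identifiers, so depth covers counting error only.

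Symbols came from GENCODE M21, which matched 91.4% of identifiers, and no gene coordinates were taken from it. Of 56953 genes, 14020 had no count and 42933 were fitted. The counts of all 12 libraries were fitted in 1 model with group as the only term (DESeq2 1.42.0 in R 4.3.3, Wald test, Benjamini-Hochberg over all tested genes, threshold 0.05). Normalized counts are counts divided by DESeq2 size factors and were used between groups, and TPM between genes. Alternatives were edgeR 4.0.16 (quasi-likelihood), limma 3.58.1 on log2(TPM + 1) and log2(TPM + 0.1), other filters and scaling, a correction for GC content and length, a replicate block, and leaving libraries out. The fits were also run on simulated counts with known differences, and no result given here rests on that run. Start-site windows were from RefSeq (GRCm38.p6).

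The members and gene lists were chosen with earlier results of these data known. All 10 members are named. From each list at most the 3 genes of lowest adjusted p in each direction with a mean of at least 50 normalized counts are named, plus Fcer1g, Syk, Card9 and Ptpn6, and values of marker genes were given beside the results they move with, chosen after their values were seen. For likeness of pattern, the 3 genes with the highest Pearson r were named, without predicted genes.

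Replicate numbers were checked over 2000 genes. Deviations of same-numbered eYFP+ and eYFP- libraries correlated with r of 0.456, 0.332 and 0.152, so by the rule of r over 0.1 in every pair the numbers pair the macrophage libraries, which rests on the data, since no source states shared animals. For eYFP+ replicate 3 the eYFP- library with the highest r was replicate 2 and not 3, so that pair is uncertain. Ly6Chi and Ly6Clo libraries (0.307, 0.031 and -0.011) were not paired, nor were macrophages with monocytes.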

Additional observations from a re-analysis of the deposited data

How the results depend on the processing

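Over 12 alternatives and the leaving out of single libraries, 1234 of 1310 values of single lectins kept their direction and their side of the threshold. The number of lectins called between eYFP+ and eYFP- macrophages was 0, but 1 (Clec4e) without both GC-poor libraries and 0 to 1 when 1 library was left out. With the replicate block it was 0 again, 5 remained between Ly6Chi and Ly6Clo monocytes, and 9 between macrophages and monocytes, where Clec4a1 was lost (-0.526, DESeq2 adjusted p = 0.0698). The block gives every group the same replicate effect, although only the macrophage libraries were taken as paired. It is thus no paired test of eYFP+ against eYFP- macrophages, and none was run. Signs turned only in differences that missed the threshold. In eYFP+ minus eYFP- macrophages without both GC-poor libraries, Clec7a was -0.152, Clec10a -0.038 and Clec12a -0.059, and with single libraries left out they ranged from -0.144 to 0.642, from -0.032 to 0.337 and from -0.05 to 0.543 (the lowest each without eYFP+ replicate 1). Clec1b ranged from -0.969 to 0.172, and was 0.063, 0.172 and 0.161 without eYFP+ replicate 2, eYFP+ replicate 3 and eYFP- replicate 1. In eYFP+ minus Ly6Chi, Clec4a1 was -0.076 with the GC and length correction and -0.074 with the block added. There Clec10a was 0.00 with only the libraries compared, -0.201 and -0.222 with the correction alone and with the block, -0.159 without both GC-poor libraries, and -0.107 (without eYFP+ replicate 1) to 0.26 with single libraries left out. In eYFP- minus Ly6Chi, Clec4a1 was 0.066 with limma at both pseudocounts and -0.117 to 0.027 (without Ly6Chi replicate 3) with single libraries left out, and Clec10a was 0.032 and 0.033 with limma and at most 0.021 (without eYFP- replicate 1). Among the named genes of the lists, the values without both GC-poor libraries were an alternative chosen after seeing the data. The causes were not tested. Low counts limit Clec4d and Clec4e in macrophages and Clec1b in Ly6Chi monocytes.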
